A study of Mus musculus with 147 samples.

Results

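Fetal testes were cut into a proximal (P), a central (C) and a distal (D) part, named by their place relative to the mesonephros, and single germ cells of each part were sequenced at E13.5, E14.5, E15.5 and E16.5. The cells described here are the wild-type, BVSC-sorted cells of parts D and P, 252 and 253 cells, with the 252 cells of part C as the middle. They were chosen from the time-point, genotype, sorting gate, part and replicate written in each cell's name, and from a filter of more than 2000 genes and 10000 to 1000000 UMIs per cell, which 12692 of the 13032 cells of the series passed. UMIs (unique molecular identifiers, 1 per captured mRNA molecule) were summed over the cells of each part, so that each of 8 pools (4 time-points with 2 replicates each) gave 1 sum for D and 1 for P.

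The study followed male germ cells of the mouse from the early embryo to the adult. BVSC mice carry the transgenes Blimp1-mVenus and Stella-ECFP, both of which light up germ cells, and the males were mated with C57BL/6 females. At E13.5 germ cells were sorted as BVSC-positive, and from E14.5 on by the ECFP signal alone, because mVenus fades. The wild-type animals received no treatment. Helq-null BVSC cells of E13.5 to E15.5 (6 pools) and wild-type BVSC-negative cells of E13.5 to E16.5 (8 pools), cut into the same 3 parts, are given beside the results. Wild-type BVSC-sorted cells of E9.5 and E10.5 (5 pools) came from embryos that were not cut into parts. Their wells 65 to 96 and 1 to 32, which hold D and P in most later pools, were compared as a well contrast. Helq encodes a DNA helicase, and the null line came from edited BVSC stem cells with a small deletion in the first exon. Its RNA was at 10.51 to 26.7 CPM in the D and P sums of the null pools and at 12.5 to 36.95 in wild type, and since 3′ tags lie outside the deletion this level does not check the genotype. The labels do not tell which animals a replicate holds, so p-values measure the spread between these pools.

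The fetal testis grows beside the mesonephros, a transient kidney that is also a source of retinoic acid. In the fetal ovary retinoic acid switches on Stra8, the gatekeeper of meiotic entry, and germ cells enter meiosis in a wave along the length of the gonad. In the testis, Sertoli cells enclose the germ cells in cords and the enzyme Cyp26b1 degrades retinoic acid, so that germ cells stop dividing in G0/G1 and turn to the male fate, with Nanos2, Dnmt3l and the piRNA pathway switched on.

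Each part held 30 to 32 cells, and each D or P sum held 6082660 to 11689383 UMIs. The sort label was borne out by germ cell identity genes (8 genes led by Dppa3, the gene of Stella, and Dazl, an RNA-binding protein of germ cells), whose summed level was 1643 to 3991 CPM (UMI counts scaled to 1e6 per sum) in D and 1399 to 3632 in P. In every cell they summed to at least 100 CPM. Somatic genes were present at lower levels. The 11 Sertoli markers summed to 46.6 to 391 CPM in D and 35.3 to 364 in P, and exceeded the germ cell genes in 4 D cells and 5 P cells. The 5 Leydig markers summed to 6.79 to 358 CPM in D and 1.82 to 750 in P, and exceeded them in 1 D cell and 2 P cells. Their highest sum was in P of E16.5 R1, where D was at 253 CPM. The 9 erythroid markers summed to 10.9 to 579 CPM in D and 37.5 to 209 in P. Somatic marker RNA was thus unequal between the parts of some pools. Whether it came from carry-over of RNA, from somatic cells or from doublets was not tested.

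A limit touches every result. In 7 of the 8 wild-type pools all 3 parts were wells of 1 library, with P in wells 1 to 32, C in wells 33 to 64 and D in wells 65 to 96, so that part and well cannot be told apart. In E13.5 R1, D and P were both in wells 1 to 32 but of different libraries, which therefore shared all 32 well barcodes.

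No gene differed between D and P germ cells past the test. Of 14128 genes tested, 0 (0%) passed a false discovery rate (FDR) of 0.05 by edgeR's quasi-likelihood test with the pool as a block, and the smallest adjusted p was 0.726. At an unadjusted p below 0.05 there were 471 genes (3.33%), of which 247 were higher and 224 lower in D. DESeq2 on the same sums called 10 genes (0.0708%), 8 higher and 2 lower in D, with 714 at an unadjusted p below 0.05. These 10 were 5 mitochondrially encoded genes (mt-Nd1, mt-Co1, mt-Co2, mt-Atp6 and mt-Co3), the histone gene Hist1h2an, and 1700019E08Rik, Gm17655, Gm37696 and Amer1. Without the pool E13.5 R1 edgeR called 2 genes, mt-Co1 and mt-Atp6, both higher in D.

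The sums were deep enough to bound the differences of well-expressed genes. Among the 6001 genes with a mean of at least 5 on the log2 CPM scale, the 95% interval of the D-P difference lay within 2-fold for 5986 (99.8%) and within 1.5-fold for 5654 (94.2%). Over all 14128 genes it lay within 2-fold for 67%, so that larger differences of weakly expressed genes could have gone undetected at this depth.

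The middle part gave the same picture. In a fit with all 3 parts, 0 of 16091 genes (0%) passed an FDR of 0.05 by edgeR for C against P, with 609 at an unadjusted p below 0.05, and likewise 0 (0%) for D against C, with 688. For these contrasts DESeq2 was not run.

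**Figure D1:**
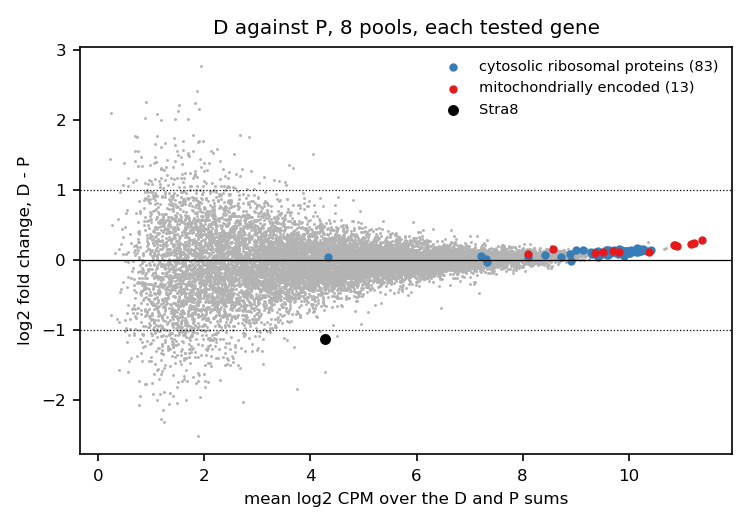
Mean level of each gene (x axis, log2 CPM) against its D-P difference (y axis, log2) over the 8 pools, 1 grey point per gene, with 83 ribosomal protein genes in blue, 13 mitochondrially encoded genes in red and Stra8 in black, and dotted lines at a 2-fold difference. The cloud is centred on 0 and narrows as the level rises, and no gene passed an FDR of 0.05.

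Distances between sums are given as a description, with no test. The median absolute difference over the 6001 well-expressed genes was 0.185 on the log2 scale between D and P of 1 pool, with 0.161 to 0.232 over the 8 pools. Between the replicates of 1 time-point, for the same part, it was 0.268, and between adjacent time-points 0.355, 0.459 and 0.428. The replicate pairs ranged from 0.199 to 0.455, so the ranges of the parts and of the replicates overlap. D and P of 1 pool share animals and mostly a library, which replicates do not, so a part is better read across replicates, where different parts were 0.288 apart (0.171 to 0.400) beside 0.268 for the same part. Of the sum of squares of these genes over all 24 sums, the day took 80.5%, the replicate within a day 9.58%, the part 1.25% and the rest 8.62%. Per degree of freedom the part took 0.624% and the rest 0.616%.

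**Figure D2:**
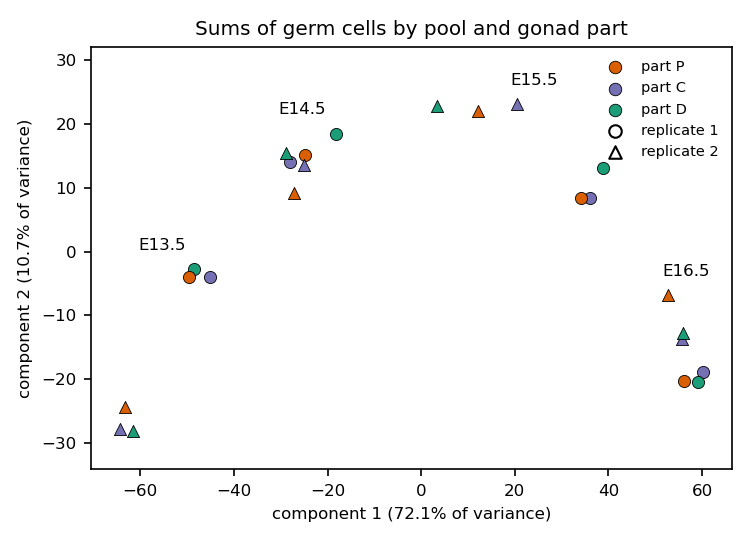
The 24 sums of germ cells on the first 2 principal components of log2 CPM (x axis 72.1% and y axis 10.7% of the variance). Points are coloured by part P, C or D, symbols give the replicate, and the time-points are written beside the points. Sums of 1 pool mostly lie near each other, those of the E14.5 pools intermix, and the first component follows the day.

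The next comparison asked whether germ cells of one end were ahead in development. Genes that differed at least 2-fold between E16.5 and E13.5 were taken from the C sums alone, which do not enter the D-P comparison, and gave 3738 rising and 2407 falling genes. They come from a contrast in which 6833 of 18134 genes (37.7%) passed an FDR of 0.05, so development moved a large part of the transcriptome over these 3 days.

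The genes of both groups were then read for their D-P difference. Of the 2618 rising genes that were tested, 1330 (50.8%) were higher in D, with a median D-P difference of 0.0058 on the log2 scale. Of the 2391 falling genes 1117 (46.7%) were higher in D, with a median of -0.010. Over all genes 49.8% were higher in D, with a median of -0.00089. At an unadjusted p below 0.05 there were 36 rising genes higher and 39 lower in D, and 23 falling genes higher and 60 lower. Over all genes 247 were higher and 224 lower at that p, so the falling genes were more often lower in D, by a small median, and this share was not tested.

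A stage score per cell, the log2 ratio of the summed level of rising genes to that of falling genes, put the ends on a common scale. In part C, which chose the genes, a step of 1 day was 1.14 from E13.5 to E14.5, 1.88 to E15.5 and 1.10 to E16.5, and these steps serve only as a ruler. The D-P difference of the mean score was 0.04 ± 0.19 (SD, n = 8 pools), from -0.36 in E15.5 R2 to 0.24 in E15.5 R1. D had the higher score in 6 of 8 pools, and an exact two-sided sign-flip permutation test gave p = 0.570 (adjusted p = 0.907 over 35 values). The 2 replicates of E15.5 thus stood at opposite ends of the range. The spread of the score over the cells of a sum was also compared, and its D-P difference was -0.02 ± 0.20 (SD, n = 8; exact permutation p = 0.813), with D higher in 4 of 8 pools.

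**Figure D3:**
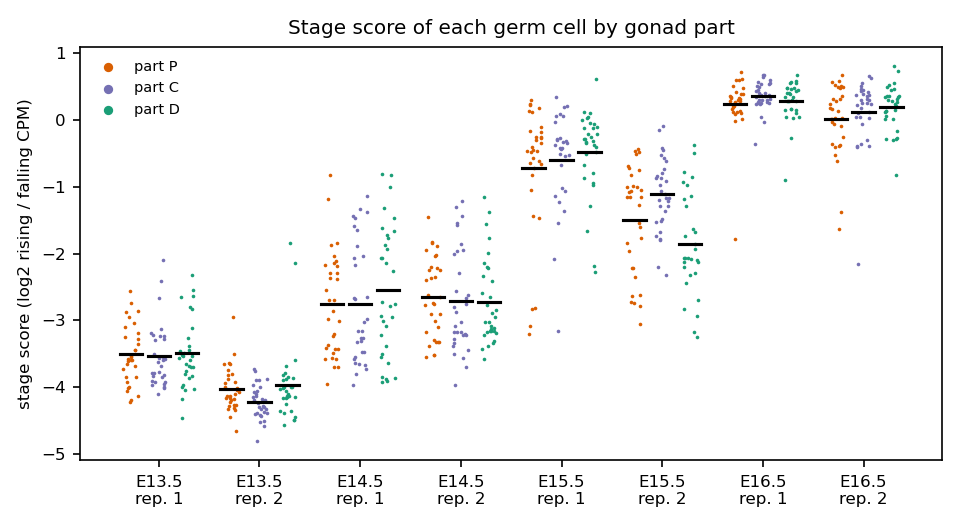
Stage score of single cells (y axis, log2 ratio of rising to falling genes) for parts P, C and D of the 8 pools (x axis), 1 point per cell with a bar at the mean. The parts of a pool overlap, while the time-points step upwards from about -4 at E13.5 to above 0 at E16.5.

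Genes that mark germ cells and their male fate had similar values at both ends. Ddx4, an RNA helicase of germ cells, was at 388 to 551 CPM in P (median 414) and 378 to 634 in D (median 449), and its D-P difference was 0.10 (SE 0.05) on the log2 scale. Dazl had the same difference, 0.10 (SE 0.06), and Dppa3 0.14 (SE 0.11). All 8 germ cell identity genes were tested, 6 were higher in D and none had an unadjusted p below 0.05, with a median difference of 0.097.

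Of 19 genes of male fate and the piRNA pathway, which silences transposons in fetal male germ cells, 18 were tested and 12 were higher in D, with a median of 0.09. Only Gtsf1, a piRNA pathway protein (0.23, SE 0.08, p = 0.0152), and Dnmt3a, a de novo DNA methyltransferase (0.17, SE 0.07, p = 0.0227), had an unadjusted p below 0.05, with an edgeR adjusted p of 0.999 for both. Nanos2, an RNA-binding repressor that male germ cells need, had a median of 39.4 CPM in P and 46.5 in D, and a difference of -0.14 (SE 0.41). Dnmt3l, the cofactor of de novo methylation, was at 0 to 382 CPM in P and 0 to 475 in D, and differed by 0.28 (SE 0.18). Piwil4, the nuclear Piwi protein, differed by -0.04 (SE 0.13). The intervals of Nanos2 and Dnmt3l reached from -0.99 to 0.71 and from -0.11 to 0.66, so they were bounded less tightly than the identity genes.

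Pluripotency genes gave 9 of 14 higher in D, with a median of 0.037. Pou5f1, a core pluripotency factor, was at 101.5 to 306 CPM in P and 94.8 to 264 in D (difference -0.10, SE 0.07), and Sox2 (0.06, SE 0.32) and Nanog (-0.15, SE 0.13), its partners, likewise did not pass. Dppa4 was the 1 gene of this list with an unadjusted p below 0.05 (0.12, SE 0.06, edgeR p = 0.0470, adjusted 0.999).

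The stop of cell division, which marks these days, was compared with 2 lists of cycle genes. For G1/S genes, which act in DNA replication, 31 of 43 were higher in D (median 0.055), and Usp1 (0.30, SE 0.10) and Uhrf1 (0.38, SE 0.16), which keeps DNA methylation at replication, had unadjusted edgeR p-values of 0.00871 and 0.0272. For G2/M genes 23 of 53 were higher (median -0.017), with none at an unadjusted p below 0.05. The summed level of the G1/S list differed by 0.06 ± 0.09 (SD, n = 8; exact permutation p = 0.141, adjusted 0.492) and that of the G2/M list by 0.02 ± 0.13 (exact permutation p = 0.688, adjusted 0.942). Mki67, a protein of dividing cells, was at 11.1 to 226 CPM in P and 4.54 to 180 in D, and its D-P difference was -0.08 (SE 0.14).

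Cdkn1a, an inhibitor of cyclin-dependent kinases (chromosome 17, 29090976-29100727, plus strand; GENCODE M21 on mm10), was lower in D in 8 of 8 pools. It was at 19.2 to 208 CPM in P (median 96.5) and at 13.9 to 175 in D (median 68.9). The ranges over pools overlap because the level differs between days, and the difference within pools was -0.38 (SE 0.10, unadjusted p = 0.00194, edgeR adjusted p = 0.999). In the Helq-null pools it was 0.06 (SE 0.11), and the difference between the genotypes was 0.44 (SE 0.16, unadjusted p = 0.0124, edgeR adjusted p = 0.619). Cdkn1b (0.15, SE 0.25), Cdkn2b (0.19, SE 0.26) and the mitotic inhibitor Wee1 (-0.11, SE 0.19) had differences within about 1 SE of 0.

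Of the 22 genes chosen for description, Stra8 (chromosome 6, 34920163-34939344, plus strand), the meiotic target of retinoic acid, had the smallest unadjusted p. At E13.5 it was at 32.2 CPM in P, 2.00 in C and 4.96 in D of R1, and at 4.11, 1.15 and 0.617 in R2. At E14.5 it was at 50.8, 6.72 and 5.29 in R1, and at 30.5, 18.4 and 19.4 in R2. P was the highest part in all 4 of these pools. At E15.5 P and D were at 17.8 and 9.04 in R1 and 24.2 and 24.4 in R2, and at E16.5 at 9.90 and 13.46 in R1 and 32.7 and 27.9 in R2. The order of the parts was thus mixed in the later pools.

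Over the 8 pools the D-P difference of Stra8 was -1.12 (SE 0.36, 95% interval -1.88 to -0.37), with D lower in 6 pools. Its unadjusted p was 0.00908 and its edgeR adjusted p over all genes 0.999, so it did not pass. By day the difference was -2.68 (SE 0.65) at E13.5, -1.92 (SE 0.54) at E14.5, -0.50 (SE 0.54) at E15.5 and 0.12 (SE 0.54) at E16.5, a change of 0.98 per day (SE 0.25, unadjusted p = 0.00135, edgeR adjusted p = 0.999).

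The Helq-null pools are separate animals and libraries, but with the parts tied to wells as well. P was in wells 1 to 32 and D in wells 65 to 96, or 49 to 80 in E13.5 R1. These pools gave a D-P difference of -1.24 for Stra8. At E13.5 it was at 16.4 CPM in P and 3.02 in D of R1 and at 4.90 and 0.665 in R2. At E14.5 it was at 7.66 and 4.20 in R1 and at 11.6 and 1.98 in R2, and at E15.5 D was the higher. D was therefore the lower end in all 8 pools of E13.5 and E14.5 over both genotypes, a split of days chosen after the values were seen. At these days C of the Helq-null pools averaged 9.90 CPM, beside 10.14 in P and 2.47 in D, so P did not stand above C as in wild type. In 1 fit of both genotypes the difference was -1.17 (SE 0.29, unadjusted p = 9.2e-04, edgeR adjusted p = 0.947; D lower in 10 of 14 pools), and 0 of 13862 genes (0%) passed an FDR of 0.05, with 594 at an unadjusted p below 0.05. The difference between the genotypes was -0.09 (SE 0.60, unadjusted p = 0.891).

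Few cells carried the Stra8 sums of E13.5 and of E14.5 R1. In E13.5 R1 UMIs of Stra8 were found in 13 of 31 P cells and 10 of 31 D cells, with 226 and 40 UMIs. In E13.5 R2 they were found in 4 of 31 P cells and 4 of 31 D cells, with 27 and 4 UMIs. In E14.5 R1 they were found in 14 of 32 P cells and 7 of 32 D cells, with 491 and 47 UMIs. The replicates differed at E14.5, since in R2 they were found in 30 of 32 P cells and 27 of 32 D cells, with 319 and 206 UMIs. In these early wild-type pools the P cell with the most UMIs held 38.9% to 66.7% of the P sum. The top cell held 88 of the 226 P UMIs and 21 of the 40 D UMIs in E13.5 R1. Without the top cell of each sum, P and D held 9 and 3 UMIs in E13.5 R2, 286 and 17 in E14.5 R1, and 170 and 168 in E14.5 R2. The P excess of R1 was present without these cells at both time-points, and that of E14.5 R2 rested on 1 cell. In E13.5 R1, however, P came from another library than D and C, so for its excess part and library cannot be told apart.

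**Figure D4:**
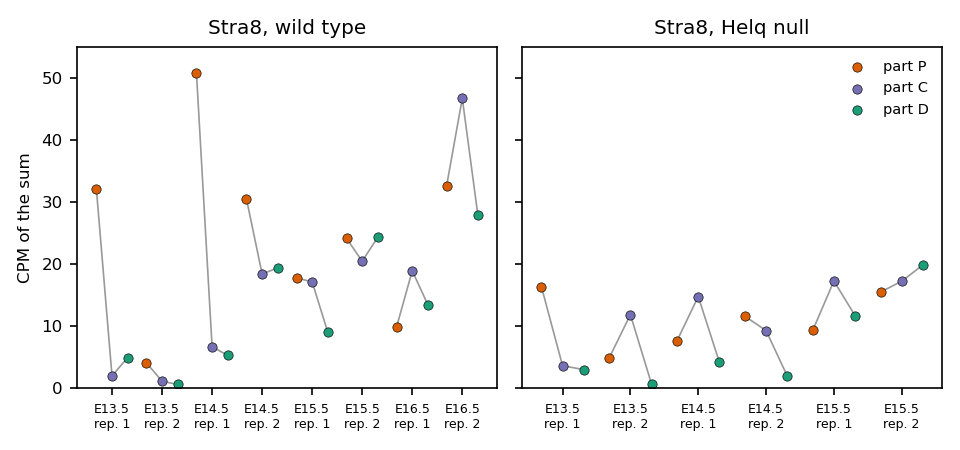
Stra8 level (y axis, CPM of the summed UMIs) in parts P, C and D of each pool (x axis), for wild-type and Helq-null germ cells, 1 point per part joined by a line within each pool. At E13.5 and E14.5 the D value lies under the P value in all 8 pools, and at later days the lines cross.

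Of 20 genes of meiosis and retinoic acid 17 were tested, 10 were higher in D and the median was 0.017, so the list as a whole did not share the difference of Stra8. Rec8, the meiotic cohesin subunit, was at 7.17 to 43.8 CPM in P (median 14.1) and at 6.17 to 52.6 in D (median 15.3), a difference of -0.07 (SE 0.27). Rarg, a retinoic acid receptor, was lower in D in the 4 early wild-type pools, but in the 4 early Helq-null pools it was lower in 2 and higher in 2.

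Nodal and activin signalling was described with 12 genes. Nodal is a TGF-beta ligand that fetal male germ cells express while they are kept in a pluripotent-like state, Tdgf1 its co-receptor and Lefty1 and Lefty2 its secreted inhibitors. Of 12 genes 10 were lower in D and the median was -0.41, beside -0.00089 over all genes tested. Nodal (chromosome 10, 61417972-61425338, plus strand) and the receptor Acvr2b (-0.44, SE 0.20) had an unadjusted p below 0.05, and the summed level of the list differed by -0.13 ± 0.30 (SD, n = 8; exact permutation p = 0.227, adjusted 0.577), so neither the genes nor the list passed.

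Nodal had its higher levels at the early days at both ends. It was at 70.7 CPM in P and 56.1 in D of E13.5 R1, 103.3 and 84.9 in R2, 64.95 and 24.6 in E14.5 R1, and 55.9 and 52.5 in R2. At E15.5 it was at 7.95 and 3.39 in R1 and 7.78 and 2.87 in R2, and at E16.5 at 0.220 and 1.21 in R1 and 5.36 and 1.31 in R2. D was lower in 7 of 8 pools, by -0.74 (SE 0.26, unadjusted p = 0.0116, edgeR adjusted p = 0.999). In the Helq-null pools the difference was 0.03, and the test of the difference between genotypes gave an unadjusted p of 0.0293 and an edgeR adjusted p of 0.692. Lefty1 differed by -0.34 (SE 0.23) and Lefty2 by -0.30 (SE 0.17).

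Notch signalling gave 6 of 13 tested genes higher in D, with a median of -0.011 and none at an unadjusted p below 0.05. Hes1, a transcriptional target of Notch, was at 51.7 to 195 CPM in P (median 91.4) and 54.4 to 181 in D (median 111.9), a difference of 0.18 (SE 0.09, unadjusted p = 0.0675, edgeR adjusted p = 0.999), with D higher in 7 of 8 pools. For Hes1 the difference was 0.25 (SE 0.09, unadjusted p = 0.0143, adjusted 0.466) in the Helq-null pools and 0.73 (SE 0.16, unadjusted p = 2.6e-04, adjusted 0.226) in the BVSC-negative cells. The fit of both genotypes gave 0.21 (SE 0.07, unadjusted p = 0.00414, edgeR adjusted p = 0.998, D higher in 11 of 14 pools), so Hes1 passed in none of these edgeR fits. In the BVSC-negative cells Hes1 was among the genes that DESeq2 called, and among those that edgeR called without E16.5 R2. Notch1 was low at both ends, with medians of 6.49 CPM in P and 4.28 in D. BMP and Id genes (3 of 11 higher, median -0.18), FGF and MAPK genes (6 of 11, median 0.043) and Wnt genes (5 of 11, median -0.033) gave no gene past the test. Of 39 Hox genes, which mark position along the body axis, 7 were expressed highly enough to be tested, 5 of them higher in D and none at an unadjusted p below 0.05.

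Stress genes were described because tissue handling can induce them. Of 16 immediate early genes, which are induced when tissue is dissociated, 5 were higher in D (median -0.052). Fos (-0.17, SE 0.34) and Egr1 (-0.55, SE 0.27) varied widely between pools. Of 9 heat shock genes 7 were higher, and the chaperone Hsp90aa1 (0.17, SE 0.05, unadjusted p = 0.00205, edgeR adjusted p = 0.999) was at 1218 to 2162 CPM in P and 1432 to 2216 in D. None of the immediate early genes had an unadjusted p below 0.05.

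Mitochondrial and ribosomal genes had the most members at an unadjusted p below 0.05 among the lists. All 13 mitochondrially encoded genes were higher in D, 9 of them at an unadjusted p below 0.05, with a median of 0.16. Of 83 cytosolic ribosomal protein genes 81 were higher in D, 44 at an unadjusted p below 0.05, with a median of 0.12. None passed an FDR of 0.05 by edgeR, beside 3.33% of all genes at an unadjusted p below 0.05. The genes of each group are correlated, so their counts are not independent.

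mt-Atp6, a subunit of the ATP synthase (mitochondrial genome, 7927-8607, plus strand), had the smallest p of all genes. It was at 1917 to 2986 CPM in P (median 2360) and 2222 to 3607 in D (median 2833), and D was higher in 8 of 8 pools. The difference was 0.29 (SE 0.05, unadjusted p = 5.1e-05, edgeR adjusted p = 0.726), and DESeq2 gave an adjusted p of 2.0e-04. By day it was 0.08 (SE 0.10) at E13.5, 0.31 at E14.5, 0.39 at E15.5 and 0.38 at E16.5. In the Helq-null pools it was 0.07 (SE 0.03), and the difference between genotypes was -0.22 (SE 0.07, unadjusted p = 0.00479, edgeR adjusted p = 0.606). For mt-Atp6 the wells of D exceeded those of P by 0.15 (SE 0.05, unadjusted p = 0.00897, edgeR adjusted p = 0.319) in E9.5 and E10.5 embryos, which were not cut into parts.

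The summed mitochondrial level was 0.20 ± 0.17 higher in D on the log2 scale (SD, n = 8; 7 of 8 pools; exact permutation p = 0.0234, adjusted p = 0.205). It was -0.11 in E13.5 R1, 0.06 in E13.5 R2 and 0.18 to 0.46 in the 6 later pools. As a mean over cells it was 0.10 (exact permutation p = 0.0469). The ribosomal level differed by 0.12 ± 0.14 (exact permutation p = 0.0703, adjusted p = 0.410). The mitochondrial difference was -0.01 in the Helq-null pools, 0.06 in the BVSC-negative cells and 0.06 between the same wells of 5 pools of E9.5 and E10.5. For the ribosomal level the sign was reversed in the Helq-null pools, at -0.07 with D higher in 1 of 6 (exact permutation p = 0.0938). It was 0.09 in the BVSC-negative cells and 0.03 between those wells.

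**Figure D5:**
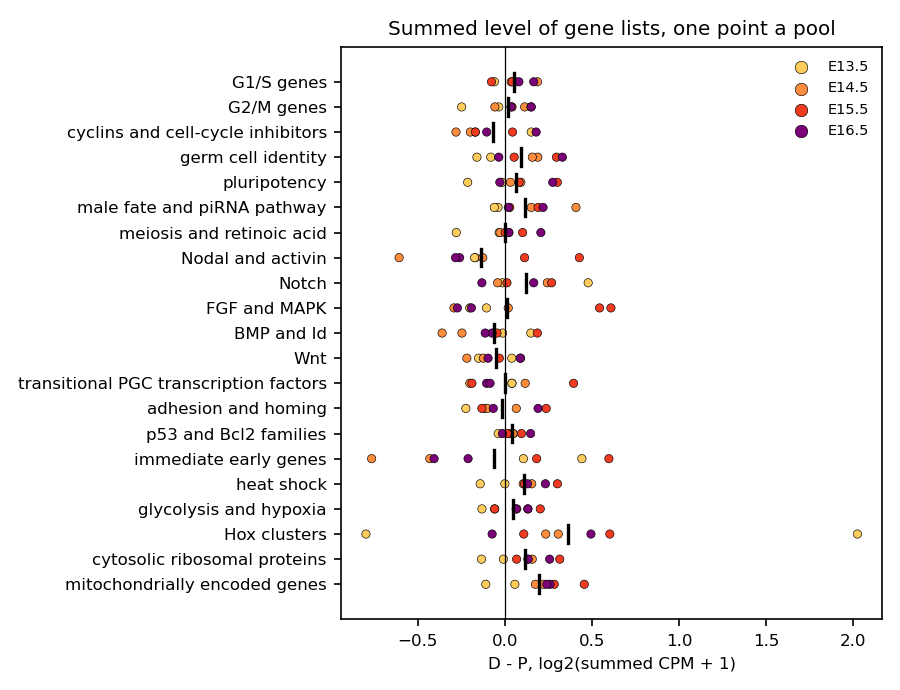
D-P difference of the summed level of each gene list (x axis, log2) for the lists on the y axis, 1 point per pool coloured by time-point, with a bar at the mean. Most lists straddle 0, the mitochondrial list lies above 0 in 7 of 8 pools, and no list passed an adjusted p of 0.05.

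Depth moved with the part. The median UMIs per cell were 178550 to 336710 in D and 242936 to 347763 in P, and D was lower in 7 of 8 pools, by -0.24 ± 0.24 on the log2 scale (SD, n = 8; exact permutation p = 0.0156, adjusted p = 0.205). At an equal 20000 UMIs per cell the D-P difference was -208 ± 162 genes per cell (SD, n = 8; exact permutation p = 0.0156, adjusted p = 0.205). The smallest p that 8 pairs allow is 0.0078. In the Helq-null pools D had the more UMIs per cell in 6 of 6, by 0.23 (exact permutation p = 0.0313, the smallest that 6 pairs allow). In a fit with each cell thinned to 20000 UMIs, mt-Atp6 again had the smallest p of 7807 genes (edgeR adjusted p = 0.188), and 0 passed. The part of depth and of wells in the mitochondrial and ribosomal differences was not tested.

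Single time-points gave 4 called genes. At E13.5 there were 3 (0.0212% of 14128), Afp (-2.99, SE 0.32, edgeR adjusted p = 0.00217), Tekt1 (-5.25, SE 0.97, adjusted p = 0.00392) and Cyp17a1 (7.01, SE 1.55, adjusted p = 0.0288). At E14.5 there was 1 (0.00708%), Gm32391 (6.10, SE 1.32, adjusted p = 0.0260). At E15.5 and E16.5 there were 0 (0%), with 709 and 560 genes at an unadjusted p below 0.05. DESeq2 was not run by time-point.

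These calls rested on 1 replicate or few cells. Afp, a protein of fetal liver and yolk sac, had UMIs in 29 of 31 P cells of E13.5 R1, in 2 of 31 D cells and 2 of 31 C cells, and in no cell of R2. Cyp17a1, an enzyme of androgen synthesis in Leydig cells, had UMIs in 29 of 31 D and 30 of 31 C cells of E13.5 R1, in 1 of 31 P cells, and in no cell of R2. In that replicate D and C shared a library and P came from another, so for these genes part and library cannot be told apart. Tekt1, a protein of cilia and flagella, had UMIs in 8 P cells and 1 D cell of R1 and in 2 and 1 of R2. Gm32391 had 65 D UMIs in 4 cells of E14.5 R1 and 17 in 2 cells of R2. With 1 pool left out, E13.5 gave 38 calls without E13.5 R2 and 1 other gene, Tcf15, without E13.5 R1, and Gm32391 passed only without E13.5 R1 or E13.5 R2. Cyp17a1 did not pass without E13.5 R1, E15.5 R1, E15.5 R2 or E16.5 R1, nor with germ-marker cells alone.

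The change of the D-P difference with day gave 0 of 14128 genes (0%) past an FDR of 0.05 by edgeR, with 659 at an unadjusted p below 0.05. The smallest p-values were those of 5033426E14Rik (4.07 per day, SE 0.91, adjusted p = 0.309), Gm10457 (2.01 per day, SE 0.44) and Zcchc14 (-0.57 per day, SE 0.13), the latter a well-expressed gene. DESeq2 was not run for this term.

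Other cells of the same gonads gave a few calls. In the wild-type BVSC-negative cells, 13 to 16 per part and pool and sorted as somatic, 3 of 11203 genes (0.0268%) passed and all were higher in D. Wnt5a, a Wnt ligand of mesenchyme (chromosome 14, 28504750-28527448, plus strand), was at a mean of 437 CPM in D and 207 in P (1.20, SE 0.15, edgeR adjusted p = 0.00533). Gucy1a1 (1.24, SE 0.18) and Ptn (1.12, SE 0.18), a subunit of the nitric oxide receptor and a secreted growth factor, were the others. When 1 pool was left out, Wnt5a passed each time, alone without any of E13.5 R2 to E16.5 R1, with Gucy1a1 without E13.5 R1, and with 50 others higher and 21 lower in D without E16.5 R2.

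In germ cells Wnt5a was at a mean of 10.0 CPM in D and 13.8 in P, a difference of -0.28 (SE 0.32). The difference of Wnt5a between the cell populations was 1.49 (SE 0.30, unadjusted p = 7.4e-05, edgeR adjusted p = 0.151), and 0 of 15349 genes passed for this term, so a difference between the populations was not established. The BVSC-negative parts were also tied to wells.

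In the Helq-null germ cells 1 of 13644 genes (0.00733%) passed, the haemoglobin gene Hbb-bs (-3.10, SE 0.47, edgeR adjusted p = 0.0414), a marker of red blood cells. It did not pass without E13.5 R1, E14.5 R1 or E15.5 R2. Between the wells of E9.5 and E10.5 that correspond to D and P, 3 of 12437 genes (0.0241%) passed, Dlk1, Col3a1 and Smarcc1, all lower in the wells of D. This well contrast, in embryos that were not cut into parts, gave 1284 genes at an unadjusted p below 0.05, more than the 471 of the germ cell contrast.

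The direction of the 471 genes was looked up in the other sets. Of those also tested in Helq-null cells 185 of 444 (41.7%) had the same sign there, beside 48.9% of all genes. In BVSC-negative cells it was 206 of 361 (57.1%, beside 50.6% of all genes), and between wells 242 of 410 (59%, beside 51.6%). Across all genes, which are not independent replicates, the D-P differences of wild-type germ cells correlated with those of the 3 other sets at r = 0.03, 0.04 and 0.02.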

How the data were processed

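The authors deposited UMI counts per gene and cell, without normalization, from a 3′ modified STRT-seq of singly picked cells; per the methods, UMI-tools handled barcodes and UMIs, seqtk trimmed, STAR aligned to mm10 and featureCounts assigned genes. The submitters' processing notes also name CASAVA 1.8. No doublet caller was run. Each cell's part was taken from the authors' table of cells, since the labels of the 147 libraries give no group.

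Counts were summed per part and pool. Genes were kept by edgeR's filterByExpr, scaled by TMM and tested with edgeR 4.0.16 (glmQLFit, glmQLFTest, pool as block) in R 4.3.3, adjusted by Benjamini-Hochberg over all genes. CPM uses TMM library sizes. Scripts were tested on simulated data. Same-numbered D and P sums share a pool, and their deviations from the mean of the day's replicates correlated at 0.416 to 0.576. Summed lists (29, among 35 single values) were log2(summed CPM + 1), with exact sign-flip permutation tests. DESeq2 1.42.0, RLE, no low-count filter, other cell filters and leave-outs were the alternatives.

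Named genes were those called, up to 10 of smallest p in each direction, 22 chosen genes, called list genes, and the 3 of smallest p for the change with day; others were named after their values were seen. The members and lists were chosen with earlier results of these data known.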

Additional observations from a re-analysis of the deposited data

Results flagged for a closer look

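Of 74 D-P differences examined over the 8 pools (single genes, lists and cell values), 2 had 1 pool far from the other 7, and chance alone marks about 1 in 20. For Rec8 the pool was E14.5 R2, where D exceeded P by 1.76 on the log2 scale (26.7 against 7.17 CPM), while the nearest pool was at 0.259. For the summed erythroid markers it was E13.5 R1, where D exceeded P by 3.40 (579 against 54.1 CPM), while the nearest pool was at 0.444. In that replicate C was at 532 CPM and shared its library with D, and P came from another library, so part and library cannot be told apart.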

How the results depend on the processing

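The D-P contrast gave 0 called genes in 15 of 18 alternatives. The others were no low-count filter (10 genes, 6 of them mitochondrial), DESeq2 (10 genes) and the fit without E13.5 R1 (2 genes, mt-Co1 and mt-Atp6), and leave-outs ranged from 0 to 2. Samples are paired by pool, and without the pool block the count remained 0, with 170 genes at an unadjusted p below 0.05 in place of 471. Of the alternatives that follow, those by time-point, the day leave-outs and those for Helq-null and BVSC-negative cells were chosen after seeing the data. With no low-count filter the counts were 83 at E13.5, 89 at E14.5, 22 at E15.5 and 8 at E16.5, and 9 for the change with day. With germ-marker cells alone E14.5 gave 2. Leave-outs gave 1 to 38 genes at E13.5 (38 without E13.5 R2), 0 to 9 at E14.5, 0 to 2 at E15.5, 0 at E16.5, and 0 to 1 for the change with day (1 without E14.5 R1). In Helq-null cells DESeq2 called 1 gene higher and 152 lower in D, and leave-outs 0 higher and 0 to 2 lower. In BVSC-negative cells DESeq2 called 84 higher and 50 lower, and leave-outs 1 to 51 higher and 0 to 21 lower (51 and 21 without E16.5 R2), with Wnt5a called in each of the 8. No list passed an adjusted p of 0.05 under any of its 10 alternatives. The 20 genes of smallest p kept their direction in all 355 values, and the other 29 named genes changed it in 36 of 513. The cause of these differences was not tested. About 30 cells per part and the wells tied to parts limit all comparisons.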
